A study of Mus musculus with 8 samples.

Results

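The genes described here are the 3 D-type cyclins (Ccnd1, Ccnd2, Ccnd3), the kinases they activate (Cdk4, Cdk6), 3 inhibitors of cyclin-dependent kinases (Cdkn1a, Cdkn1b, Cdkn2c) and Rb1. These 9 genes were taken by mouse symbol from the 37991 genes in the deposited files, and all 9 passed the filter on low values. RNA sequencing was done on fibro/adipogenic progenitors (FAPs), mesenchymal cells of skeletal muscle that can become fibroblasts or adipocytes, purified from the tibialis anterior 3 days after glycerol injury of mice of mixed background. The 5 FAP-ctrl libraries, also called controls here, came from wild type muscle, and the 3 FAP-no cilia libraries from cells that had lost the primary cilium through conditional deletion of a floxed Ift88 allele. The sources used here do not give the driver of the recombinase, the age of the mice or whether animals were pooled. The comparison of the groups asks how these transcripts differ in FAPs without cilia.

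D cyclins are made in response to growth signals and bind Cdk4 or Cdk6. The active kinases phosphorylate Rb1, which then lets go of E2F transcription factors, and E2F target genes of DNA synthesis are switched on. Cdkn2c belongs to the INK4 family, which binds Cdk4 and Cdk6 directly, whereas Cdkn1a and Cdkn1b belong to the CIP/KIP family, which binds cyclin-kinase complexes and inhibits Cdk2. Resting FAPs are largely out of the cell cycle, and muscle injury makes them divide within days. Ccnd1 and Ccnd2 are also known as genes that Hedgehog signalling can induce, and the primary cilium is where mammalian Hedgehog signalling is transduced.

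The libraries held 15.3 to 43.9 M gene reads. Ift88 stood at 457 to 594 normalized reads in the controls and at 195 to 322 in FAP-no cilia, with no overlap of the groups. DESeq2 called it (adjusted p = 6.73e-06), but limma-trend did not (adjusted p = 0.0895). In limma-trend the adjusted p was 0.657 with sex as a covariate and 0.401 among male libraries. Counts per gene do not show the deleted exons separately. Xist and 4 Y-linked genes showed that FAP-ctrl 1 and 2 and all 3 FAP-no cilia libraries were male and that FAP-ctrl 3, 4 and 5 were female, so values from the male libraries alone are given beside the results. Each of 12 FAP markers was detected, with a mean of at least 238 normalized reads. All 14 macrophage markers had a higher mean in FAP-no cilia, and their summed level was 693 to 2867 in the controls and 1533, 4977 and 1932 in FAP-no cilia. The sum of 12 endothelial markers was 687 to 1099 in the controls and 812, 864 and 1934 in FAP-no cilia, and Cldn5 was at 0 in some libraries. The sum of 10 muscle fibre markers was 138 to 206 in the controls and 44.2 to 130 in FAP-no cilia. The sum of 8 satellite cell and myoblast markers, most of it Vcam1, was 9389 to 18790 in the controls and 19210, 13690 and 14040 in FAP-no cilia. Only 1 of these 8 had a higher mean in FAP-no cilia. Of the 4 that passed the filter, 1 lay higher and 3 lower, with a median log2 difference of -0.88. Pax7, Myf5, Myod1, Myog and Cdh15 were at 0 in some libraries. The part of other cell types in the differences below was not tested. In bulk RNA, fewer cells of a type and less RNA per cell cannot be told apart. Nothing in the labels says that the libraries came from separate animals, so the p-values measure the spread between these libraries.

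Reference sequence at the starts of these genes shows which of them carry the binding motifs of regulators described further on. RefSeq windows of GRCm38.p6, from 250 bases before to 50 after a transcript start, were at hand for 6 of the 9 genes. None was at hand for Ccnd1, Ccnd2 and Rb1. The windows of Cdk4 and Cdkn1a are shown, the first because it is crowded with the E-box, the motif of Myc, and the others because Cdkn1a is the inhibitor with the largest difference here and has more than 1 start. Capitals mark the E-box CACGTG in Cdk4 (chr10:127063285-127063584, plus strand), a p53 response element in the upstream window of Cdkn1a (chr17:29090729-29091028, plus strand) and the GC box GGGCGG in the downstream window of Cdkn1a (chr17:29093519-29093818, plus strand).
Cdk4: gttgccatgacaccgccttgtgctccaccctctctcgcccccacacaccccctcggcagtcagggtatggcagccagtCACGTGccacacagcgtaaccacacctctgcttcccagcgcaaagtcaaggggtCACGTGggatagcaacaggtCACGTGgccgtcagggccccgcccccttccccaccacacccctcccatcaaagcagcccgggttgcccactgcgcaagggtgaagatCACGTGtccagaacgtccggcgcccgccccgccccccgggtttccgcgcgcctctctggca
Cdkn1a, upstream start: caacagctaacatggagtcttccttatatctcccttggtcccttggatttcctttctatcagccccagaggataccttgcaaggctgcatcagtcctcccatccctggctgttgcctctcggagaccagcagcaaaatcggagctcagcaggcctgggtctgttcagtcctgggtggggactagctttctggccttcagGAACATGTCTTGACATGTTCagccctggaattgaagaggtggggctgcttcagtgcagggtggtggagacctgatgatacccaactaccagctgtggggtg
Cdkn1a, downstream start: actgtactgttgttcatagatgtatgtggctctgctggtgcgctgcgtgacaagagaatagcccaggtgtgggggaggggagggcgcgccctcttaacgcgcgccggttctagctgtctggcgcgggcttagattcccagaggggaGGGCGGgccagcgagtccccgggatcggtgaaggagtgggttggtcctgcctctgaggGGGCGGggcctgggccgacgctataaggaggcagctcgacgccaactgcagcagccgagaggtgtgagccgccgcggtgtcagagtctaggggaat

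The Cdk4 window held the E-box 4 times, on a motif that reads the same on both strands. Of 32851 windows in the table, 7.15% held at least 1 such E-box and 8 held 4 or more. The upstream Cdkn1a window held 1 match to the p53 response element, searched as a pair of adjoining half-sites of 10 bases. The C and G of both cores had to match, with at most 1 mismatch at any other base. The pattern reads the same on both strands. Such a match was found in 22 of the 32851 windows. The GC box, searched on both strands, was found in 35.7% of windows and 2 times in the downstream Cdkn1a window. It was also found 4 times in 1 of the 2 Cdkn2c windows, 3 times in Cdk4, 2 times in each of the 2 Ccnd3 windows and 1 time in Cdkn1b. Besides Cdk4, the E-box was found 1 time in the Cdk6 window and 1 time in the other Cdkn2c window. Neither the GLI motif GACCACCCA (0.253% of windows) nor the E2F motifs TTTCCCGC or TTTGGCGC (1.57% of windows) was found in a window of the 6 genes, on either strand. These are matches of letters and not measured binding sites, and the read counts do not separate the starts of Cdkn1a.

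Ccnd1 (ENSMUSG00000070348, chromosome 7, 144929931 to 144939925, minus strand, GRCm38), the cyclin that links mitogens to entry into the cell cycle, differed most among the 9 genes. It stood at 1695, 1731, 1832, 1292 and 1497 normalized reads in FAP-ctrl 1 to 5 and at 2988, 2656 and 2786 in FAP-no cilia 1 to 3. Every FAP-no cilia library was above every FAP-ctrl library, and the lowest FAP-no cilia value was well clear of the highest FAP-ctrl value. The means were 1609 ± 215 (SD, n = 5) and 2810 ± 167 (SD, n = 3), a ratio of 1.75. On the log2(value + 1) scale the difference was 0.81 ± 0.11 (SE). In limma-trend, with Benjamini-Hochberg adjustment over 14768 genes, it missed the threshold of 0.05 (adjusted p = 0.0895). DESeq2 on the reads recovered from the same values called Ccnd1 higher, with a log2 difference of 0.80 (adjusted p = 2.325e-06).

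The Ccnd1 difference was similar among males and did not rest on 1 library. The 2 male FAP-ctrl libraries lay at 1695 and 1731, inside the female range of 1292 to 1832, and below all 3 male FAP-no cilia libraries. Among male libraries the log2 difference was 0.71 (limma-trend adjusted p = 0.156, DESeq2 adjusted p = 3.894e-07), and with sex as a covariate it was 0.71 (adjusted p = 0.657 and 0.0189 in the same order). DESeq2 called Ccnd1 with each library left out in turn, at adjusted p-values of 4.932e-08 to 0.00238. On the opposite strand LTO1 shares 1100 bases of exon with Ccnd1, and its level of 149 to 290 normalized reads overlapped between the groups.

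**Figure D1:**
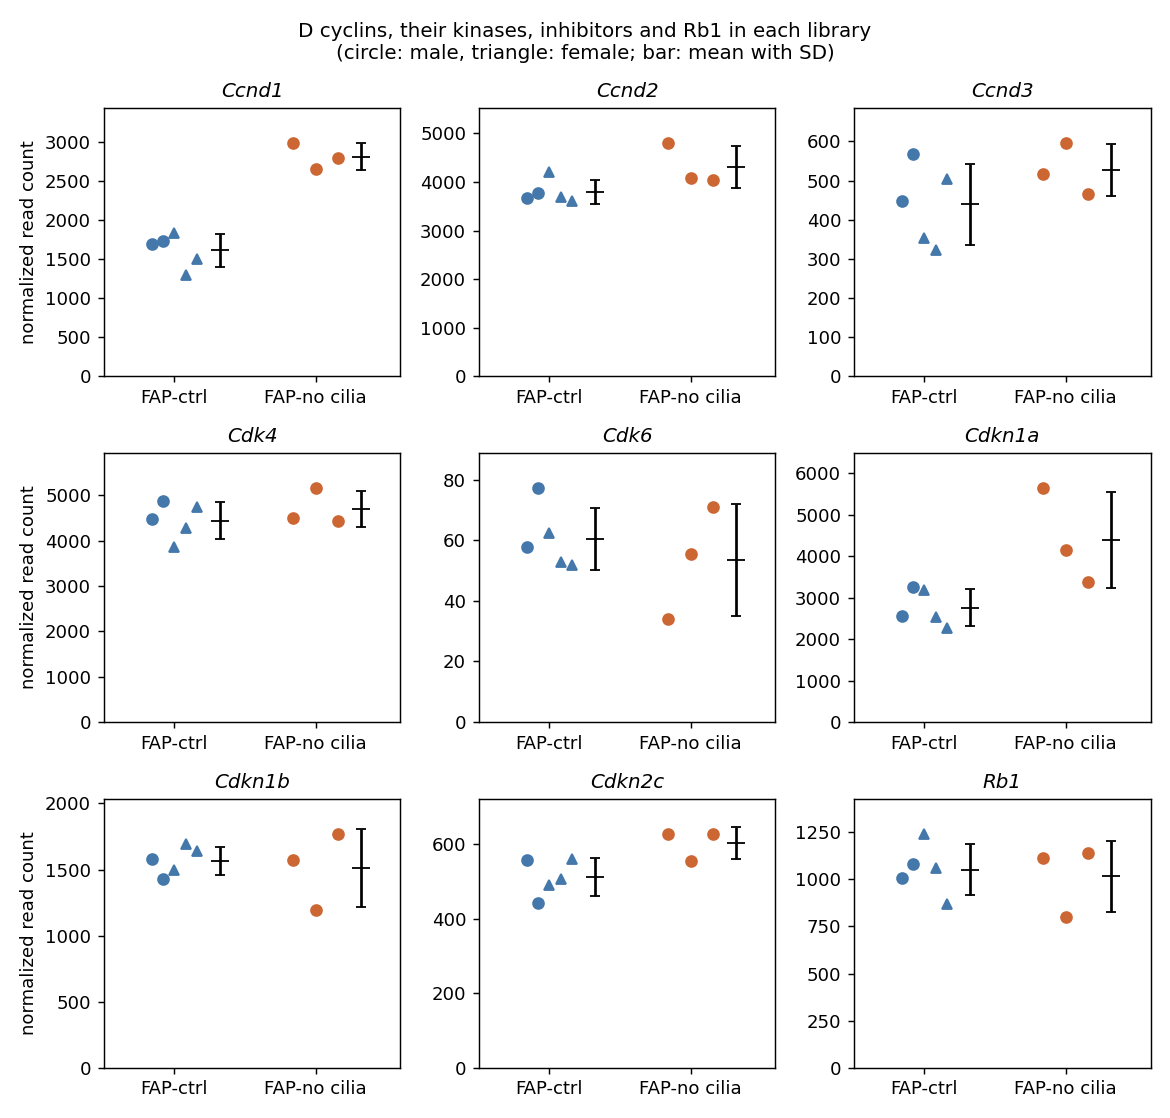
Normalized read count (vertical axes, each from 0) of the 9 genes in the 5 FAP-ctrl and 3 FAP-no cilia libraries. Circles are male and triangles female libraries, and the bars give the mean and SD. Only the panels of Ccnd1 and Cdkn1a have all FAP-no cilia points above all FAP-ctrl points.

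Ccnd2 (ENSMUSG00000000184, chromosome 6, 127125162 to 127152193), the D cyclin with the most reads in these cells, stood at 3662, 3782, 4206, 3701 and 3610 normalized reads in the controls and at 4810, 4072 and 4047 in FAP-no cilia. FAP-ctrl 3 lay above 2 of the 3 FAP-no cilia libraries, so the groups overlapped, whereas the 2 male FAP-ctrl libraries lay below all FAP-no cilia libraries. Its log2 difference, 0.18 ± 0.09 (SE), missed the threshold in limma-trend (adjusted p = 0.484), and its 95% interval ran from -0.01 to 0.38. Ccnd3 (ENSMUSG00000034165, chromosome 17, 47505051 to 47599691), the D cyclin typical of blood and of differentiating muscle cells, was the least abundant. Its values were 446.8, 568.0, 352.2, 323 and 505 in the controls and 517, 597 and 465 in FAP-no cilia. These overlapped, and the log2 difference of 0.29 ± 0.19 (SE, adjusted p = 0.611) was 0.05 among male libraries in DESeq2. Bysl, on the opposite strand, shares 361 bases of exon with Ccnd3 and stood at 402.8 to 569.9 over the 8 libraries, about as high as Ccnd3, and without a stated strand setting their reads may not be separable.

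Divided by length, Ccnd1 made up a larger share of the D cyclin transcripts in FAP-no cilia and Ccnd2 a smaller share. The level of Ccnd2 per kb was itself not lower, with means of 403 in the controls and 458 in FAP-no cilia. Normalized reads per kb of exon were summed over the 3 cyclins, and the share of each was taken within a library, which does not depend on how libraries are scaled. Ccnd1 made up 45.0%, 44.1%, 44.4%, 39.0% and 41.9% of the sum in the controls and 52.7%, 52.97% and 55.05% in FAP-no cilia. Ccnd2 made up 48.65%, 48.2%, 51.0%, 55.8% and 50.55% in the controls and 42.4%, 40.6% and 40.0% in FAP-no cilia. Neither share overlapped between the groups, and the order of the 2 cyclins turned: Ccnd2 led in all 5 FAP-ctrl libraries and Ccnd1 in all 3 FAP-no cilia libraries.

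The Ccnd1 share averaged 42.85% ± 2.48 (SD) over the 5 controls and 53.6% ± 1.29 (SD) over the 3 FAP-no cilia libraries. This difference of 10.7 points had p = 0.0357 in an exact two-sided permutation test, the smallest value that 5 against 3 libraries allow, and p = 0.0714 after adjustment over the 4 shares compared. The Ccnd2 share differed by -9.81 points, with the same exact permutation p-values. These p-values do not take into account that the genes were chosen with earlier results of these data known. Shares within a library add up to the whole, so with little Ccnd3 the Ccnd2 share largely mirrors that of Ccnd1. It is not a separate result. The Ccnd3 share, 6.30% ± 1.41 and 5.40% ± 0.85 (SD), overlapped between groups (exact permutation p = 0.429, also after adjustment). With the longest transcript as the length the Ccnd1 share was 37.5% and 47.9%, and the lead then stayed with Ccnd2 in the controls (52.5%) and lay with Ccnd1 in FAP-no cilia, where Ccnd2 had 43.3%. With reads not divided by length, Ccnd2 led in both groups, at 65.0% and 56.3%.

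**Figure D2:**
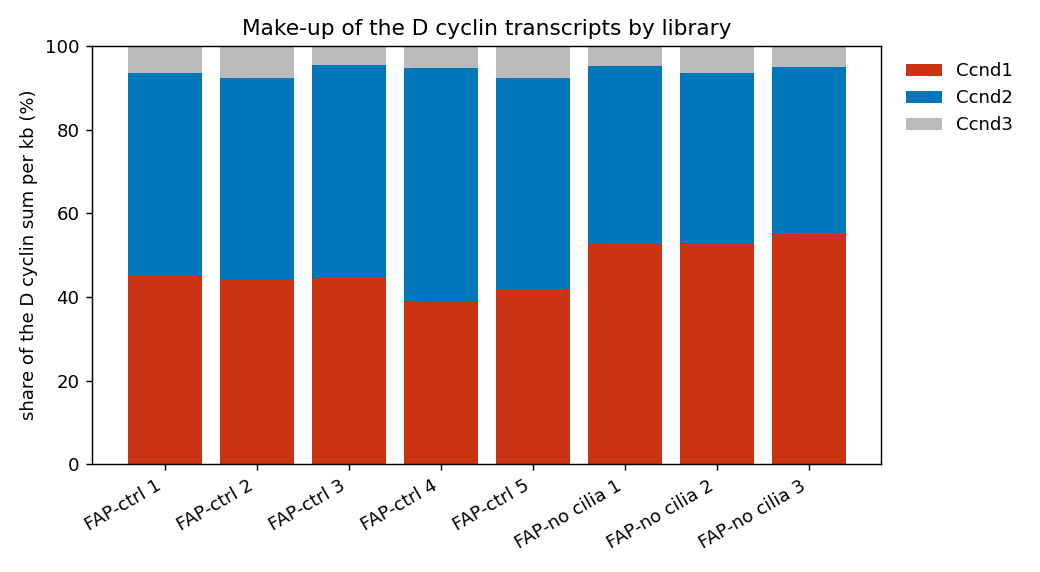
Share of Ccnd1, Ccnd2 and Ccnd3 in the summed D cyclin level per kb of exon (vertical axis, percent) in each of the 8 libraries (horizontal axis). The Ccnd1 segment is 39.0% to 45.0% in the FAP-ctrl bars and 52.7% to 55.05% in the FAP-no cilia bars.

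The sum of the 3 D cyclins was 705 to 876 normalized reads per kb in the controls and 1065 to 1205 in FAP-no cilia. The ratio of Ccnd1 to Cdk4 per kb was 0.209 to 0.328 in the controls and 0.356 to 0.458 in FAP-no cilia. Both are given as descriptions, with no test.

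Cdk4 (ENSMUSG00000006728, chromosome 10, 127063534 to 127067920), the main kinase partner of D cyclins in mesenchymal cells, stood at 4474, 4869, 3850, 4272 and 4739 normalized reads in the controls and at 4506, 5153 and 4422 in FAP-no cilia. The groups lay on top of each other. The log2 difference was 0.08 ± 0.10 (SE, adjusted p = 0.790), with a 95% interval from -0.13 to 0.29, so a difference of the size of that of Ccnd1 lay outside it. Its opposite-strand neighbour Tspan31 shares 641 bases of exon and stood at 1592 to 1859. Cdk6 (ENSMUSG00000040274, chromosome 5, 3341485 to 3531008), the partner kinase typical of blood cells, was close to the floor of the data. It stood at 57.9, 77.2, 62.4, 52.9 and 52.0 in the controls and at 34.1, 55.6 and 70.9 in FAP-no cilia. The FAP-no cilia values enclosed most of the FAP-ctrl values, and the log2 difference of -0.22 ± 0.26 (SE, adjusted p = 0.794) had an interval from -0.80 to 0.37. Per kb, Cdk4 made up 99.6% to 99.8% of the sum of both kinases in every library, and the group means, 99.68% and 99.73%, did not separate (exact permutation p = 0.357, adjusted p = 0.429 over the 4 shares).

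Cdkn1a (ENSMUSG00000023067, chromosome 17, 29090976 to 29100727), the inhibitor that p53 and other stress and differentiation signals induce, had the second largest difference. It stood at 2566, 3250, 3187, 2520 and 2265 normalized reads in the controls and at 5633, 4156 and 3371 in FAP-no cilia. The groups did not overlap, but FAP-no cilia 3 was close to the highest FAP-ctrl library and FAP-no cilia 1 was far above it. The means were 2758 ± 437 (SD, n = 5) and 4387 ± 1149 (SD, n = 3), a ratio of 1.59. In limma-trend the log2 difference was 0.65 ± 0.17 (SE) and missed the threshold (adjusted p = 0.236), and DESeq2 called it (0.66, adjusted p = 0.0295).

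The DESeq2 call of Cdkn1a was less stable than that of Ccnd1. It was lost without FAP-ctrl 1 (adjusted p = 0.0994), 4 (0.104) or 5 (0.0704), without FAP-no cilia 1 (log2 difference 0.45, adjusted p = 0.476) and without FAP-no cilia 2 (0.137). It was also lost with sex as a covariate (0.59, adjusted p = 0.6395) and among male libraries (0.59, adjusted p = 0.2995). The 2 male FAP-ctrl libraries, at 2566 and 3250, still lay below all FAP-no cilia libraries.

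Cdkn1b (ENSMUSG00000003031, chromosome 6, 134920401 to 134925513), the inhibitor that holds resting cells out of the cycle, stood at 1576, 1427, 1493, 1690 and 1639 in the controls and at 1575, 1192 and 1770 in FAP-no cilia. FAP-no cilia held both the lowest and the highest library, and the log2 difference was -0.07 ± 0.12 (SE, adjusted p = 0.883), with an interval from -0.34 to 0.21. Cdkn2c (ENSMUSG00000028551, chromosome 4, 109660876 to 109667189), the INK4 inhibitor among the 9 genes, stood at 558, 440, 489, 506 and 561 in the controls and at 627, 554 and 627 in FAP-no cilia. Only FAP-no cilia 2 fell inside the FAP-ctrl range. The log2 difference of 0.24 ± 0.11 (SE) had an unadjusted p of 0.0477 and did not pass in limma-trend (adjusted p = 0.458). The ratio of Cdkn1a to the D cyclin sum per kb, 0.840 to 1.10 in the controls and 0.883 to 1.32 in FAP-no cilia, overlapped between the groups.

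Rb1 (ENSMUSG00000022105, chromosome 14, 73183673 to 73325822), the pocket protein that the D cyclin kinases act on, stood at 1006, 1082, 1242, 1062 and 867 in the controls and at 1113, 799 and 1138 in FAP-no cilia. The groups overlapped, with FAP-no cilia 1 and 3 inside the FAP-ctrl range and FAP-no cilia 2 below it. The log2 difference was -0.06 ± 0.14 (SE, limma-trend adjusted p = 0.919), with an interval from -0.37 to 0.26. Rcbtb2 and Lpar6, on the opposite strand, share 488 and 408 bases of exon with Rb1, and without a stated strand setting their reads may not be separable from it.

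Set against all genes, limma-trend called 0 of the 9 genes and 1 of the 14768 genes tested (0.00677%), with 1591 genes and 3 of the 9 at an unadjusted p under 0.05. Over all genes, DESeq2 called 173 and edgeR 1, with 1508 at an unadjusted p under 0.05 in edgeR. DESeq2 called 2 of the 9 higher, Ccnd1 and Cdkn1a, against 0.515% of all genes. Every FAP-no cilia library lay above every FAP-ctrl library for 2 of the 9, against 3.62% of all genes, and below for 0 of the 9, against 3.69%. The 9 genes and the lists below were chosen with earlier results of these data known, so these counts cannot show enrichment. The median log2 difference of the 9 genes was 0.18, with 6 higher and 3 lower, beside a median of 0.0077 over all genes tested.

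Per kb of exon the 9 transcripts spanned more than 2 orders of magnitude in the controls. Cdk4 led with 1367 ± 124 normalized reads per kb (SD, n = 5), followed by Cdkn1a with 776 ± 123, Ccnd2 with 403 ± 25.5, Cdkn1b with 344 ± 23.3 and Ccnd1 with 342 ± 45.6. Cdkn2c (190 ± 18.7), Rb1 (175 ± 22.5), Ccnd3 (50.0 ± 11.7) and Cdk6 (4.32 ± 0.73) followed. The library ranges of Cdkn1b and Ccnd1 overlapped, as did those of Cdkn2c and Rb1, so these neighbours did not differ beyond their spread. Their order also depended on the length used. With the longest transcript, the control mean of Ccnd1 (430) lay above that of Cdkn1b (344), and that of Rb1 (226) above that of Cdkn2c (207). The ranges of Ccnd2 and Ccnd1 overlapped as well, but Ccnd2 was the higher of both in each control library. In FAP-no cilia Ccnd1 stood at 597 ± 35.5 per kb (SD, n = 3), above Ccnd2 at 458 ± 46.1 and Cdkn1b at 332 ± 64.6, with no overlap of its library range with theirs. With the longest transcript as the length, the FAP-no cilia ranges of Ccnd1 (710 to 799) and Ccnd2 (639 to 760) overlapped. Cdk4 and Cdkn1a kept the top ranks, at 1445 ± 123 and 1235 ± 323, and overlapped.

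**Figure D3:**
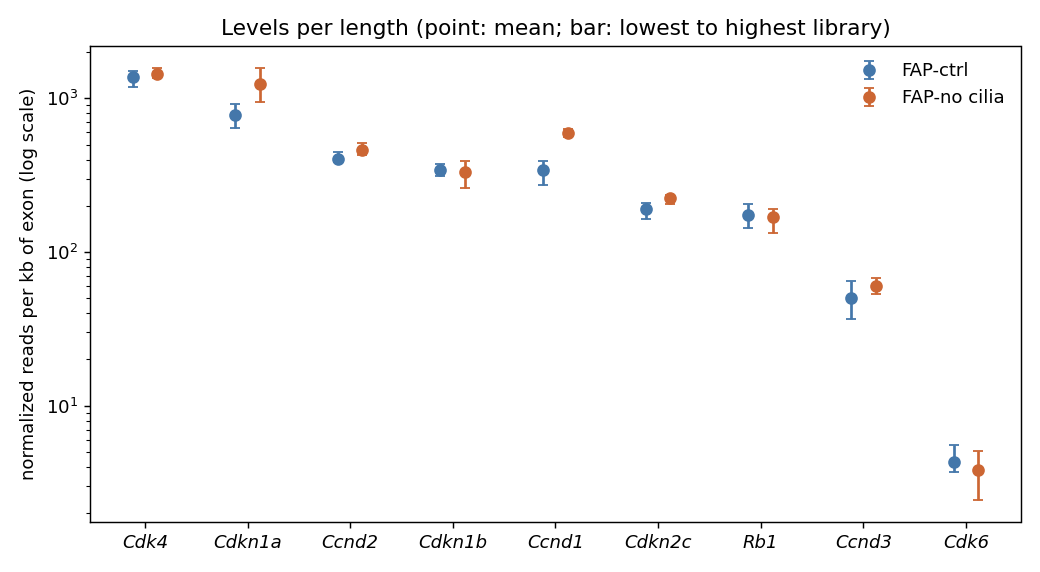
Level of each of the 9 transcripts in normalized reads per kb of exon (vertical axis, log scale), ordered by the FAP-ctrl mean. Points are group means and bars run from the lowest to the highest library. Ccnd1 moves from a mean of 342 to one of 597, while Cdk4 stays at the top in both groups.

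Regulators that act on the same step were described from lists. Of the other inhibitors, Cdkn2a, which gives rise to an INK4 protein and to an activator of p53, stood at 3.73 to 20.1 normalized reads over the libraries and did not pass the filter. Cdkn2b, an INK4 gene induced by TGF-beta, stood at 57.9 ± 9.17 (SD, n = 5) and 78.9 ± 17.9 (SD, n = 3), with a log2 difference of 0.43 ± 0.22 (SE, adjusted p = 0.509). Cdkn1c, the imprinted CIP/KIP gene, stood at 125 ± 45.3 and 92.7 ± 18.9 (SD), with a difference of -0.37 ± 0.30 (SE, adjusted p = 0.699). Cdkn2d was not analysed here. The groups overlapped for each of the 3 measured genes.

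Pocket proteins and E2F factors comprised 12 genes, of which 10 lay higher and 2 lower (median log2 difference 0.13), with 0 called by either limma-trend or DESeq2. Rbl1 and Rbl2, the relatives of Rb1, had differences of 0.13 ± 0.15 and 0.04 ± 0.11 (SE). E2f1, an activating factor, and E2f4, which works with Rbl1 and Rbl2 in resting cells, had differences of 0.12 ± 0.15 and 0.14 ± 0.15 (SE). Groups separated only for Tfdp1, the dimer partner of E2F proteins, named after its values were seen. It stood at 4268 to 4556 in the controls and 4659 to 5336 in FAP-no cilia, a separation found for 3.62% of all genes.

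Downstream of Rb1, all 8 later cyclins and kinases were higher in the mean, with a median log2 difference of 0.19, as were all 16 E2F target genes, with a median of 0.13. Of these 24 genes, neither limma-trend nor DESeq2 called any. Ccne1 and Ccne2, the E cyclins of the step after the D cyclins, had differences of 0.18 ± 0.10 and 0.21 ± 0.12 (SE), and Ccna2, the cyclin of S phase, 0.21 ± 0.10 (SE). Their kinase Cdk2 had means of 1233 ± 121 (SD, n = 5) and 1251 ± 77.8 (SD, n = 3), and a difference of 0.02 ± 0.10 (SE). The groups overlapped for each of these 4 genes. Cdk1, Cdc25a, Mcm3 and Tyms, named after their values were seen, were the 4 of the 24 whose groups separated, with every FAP-no cilia library above every control, as for 3.62% of all genes. Of all 14768 genes tested, 7610 had a higher fitted mean in FAP-no cilia.

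Genes that share the p53 input of Cdkn1a were 13 of 14 higher, against 7610 of all 14768 genes, with a median log2 difference of 0.27. Limma-trend called 0 and DESeq2 called 1 higher, against 0.515% of all genes. The called gene was Phlda3, a repressor of Akt signalling named after its values were seen. It stood at 518 ± 68.7 (SD, n = 5) and 747 ± 53.5 (SD, n = 3) (adjusted p = 0.0189 in DESeq2, 0.755 with sex as a covariate). Its groups separated, at 431 to 624 in the controls and 693 to 800 in FAP-no cilia, as for 3.62% of all genes. Ccng1 stood at 5044 ± 735 and 6948 ± 1150 (SD), a difference of 0.46 ± 0.14 (SE, adjusted p = 0.284), and Mdm2, the ubiquitin ligase of p53, at 6780 ± 1424 and 7611 ± 1380 (SD), a difference of 0.18 ± 0.19 (SE, adjusted p = 0.763). Ccng1 and Mdm2 overlapped between the groups. Among male libraries the median of these 14 genes was 0.16 in limma-trend.

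Among inducers of D cyclins 8 of 15 lay higher and 7 lower (median 0.02), with 0 called by limma-trend or DESeq2. Myc, whose protein binds the E-box that the Cdk4 window holds 4 times, had means of 7743 ± 936 (SD, n = 5) and 7360 ± 298.5 (SD, n = 3), and a difference of -0.07 ± 0.11 (SE, adjusted p = 0.865). Stat5a, named after its values were seen, was the gene of this list whose groups separated, at 575 to 701 in the controls and 474 to 518 in FAP-no cilia. Of 8 genes listed as repressors of D cyclins or FOXO activators of Cdkn1b, 5 lay higher and 3 lower (median 0.18). DESeq2 called 1 gene of this list lower, Caprin2, named after its values were seen. It stood at 903 ± 110 and 570 ± 88.2 (SD) (DESeq2 adjusted p = 0.00298, and 0.435 with sex as a covariate). Its place in the list is not taken here as a role in repressing D cyclins, and no such role was tested. Of all 14768 genes, DESeq2 called 97 lower. Groups separated for Caprin2 and, in the other direction, for Foxo1 and Klf6, also named after their values were seen. Foxo1 stood at 540 to 637 in the controls and 644.5 to 815 in FAP-no cilia, and Klf6 at 32310 to 40810 and 41290 to 46330. Such separation was found for 3.62% of all genes upwards and 3.69% downwards.

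The turnover genes of D cyclins and inhibitors had 10 of 15 higher, with a median of 0.04 and 0 called by limma-trend or DESeq2. Skp2, which targets Cdkn1b for degradation, and Fbxo4, reported to target Ccnd1, had differences of 0.09 ± 0.12 and 0.05 ± 0.11 (SE). The 5 genes of the CDK activating kinase and of chaperones of Cdk4 were all higher by small amounts (median 0.14), and among 8 cyclins with other roles 2 were higher and 6 lower (median -0.04). Neither list had a call by limma-trend or DESeq2. Among these cyclins the groups separated for Ccnl2, lower in FAP-no cilia, and Ccnc, higher, both named after their values were seen. Over all genes tested, 3.69% separated downwards and 3.62% upwards. Of the 4 Hedgehog readout genes, Gli1 stood at 22.4 to 51.2 normalized reads in the controls and 63.1 to 91.4 in FAP-no cilia, and Ptch1 at 319 to 442 and 586 to 604. Both separated the groups, as Ccnd1 did, and DESeq2 called Ptch1 (adjusted p = 0.0048, and 0.425 with sex as a covariate) and not Gli1 (adjusted p = 0.0963).

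**Figure D4:**
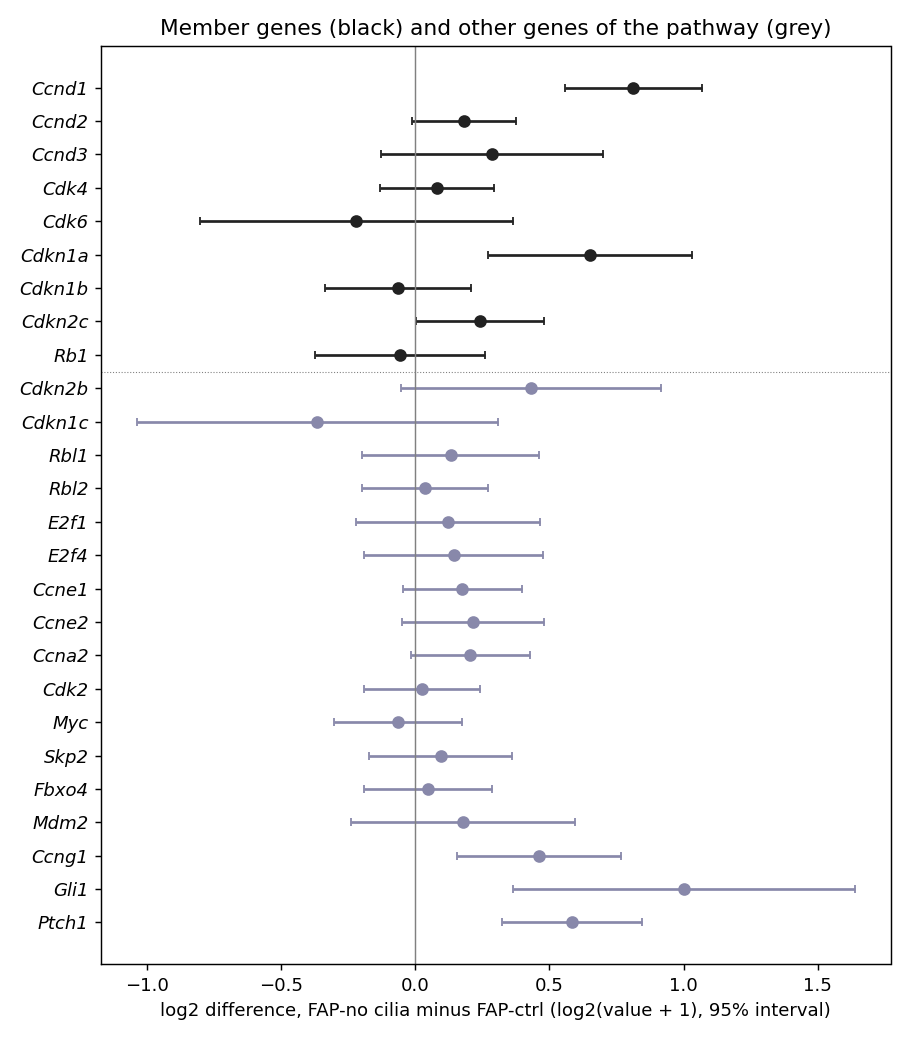
Difference between the groups on the log2(value + 1) scale (horizontal axis, FAP-no cilia minus FAP-ctrl) with its 95% interval from limma-trend for the 9 genes (black) and other genes of the pathway (grey). The intervals of Ccnd1 (0.56 to 1.07), Cdkn1a (0.27 to 1.03), Cdkn2c, Ccng1, Gli1 and Ptch1 lie above 0 before adjustment for the number of genes tested.

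Genes whose values ran most like those of 3 of the 9 over the 8 libraries were found by Pearson's r of log2(value + 1) among 10215 protein-coding genes with a mean of at least 100. Nearest to Ccnd1 were Fzd5 (r = 0.967), a Wnt receptor, Arpin (0.966), an inhibitor of the Arp2/3 complex, and Ckap4 (0.963), a protein of the endoplasmic reticulum. All 3 separated the groups, with smaller log2 differences of 0.20, 0.42 and 0.23. They were picked for likeness to Ccnd1 over these same libraries, so their separation largely follows from the choice. Nearest to Ccnd2 were Msn (0.971), a linker of membrane and actin, Map4 (0.969), a microtubule-binding protein, and Psmd1 (0.966), a proteasome subunit. Nearest to Cdkn1a were Add1 (0.986), a protein of the membrane skeleton, Ppia (0.982), a prolyl isomerase, and Prelid2 (0.9785). Within the 9 genes, Ccnd2 and Cdkn1a had r = 0.920, Ccnd1 and Cdkn1a 0.863, Ccnd1 and Ccnd2 0.786, and Cdk4 and Rb1 -0.795. These are descriptions over 8 points that share 2 groups and the scaling of each library.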

How the data were processed

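RNA sequencing of 8 libraries was analysed. Per the series design text and the submitters' processing notes, the authors aligned single-end reads of 50 bases from stranded total RNA libraries to GRCm38 with STAR and normalized the counts per gene with DESeq over all samples. The deposited signal is thus the reads of a gene scaled by 1 size factor for each library. The sources used here give neither the counting tool nor its strand setting. All values were whole multiples of the value of 1 read within 0.01 reads, which gave the reads back (15.3 to 43.9 M per library). Symbols, positions and exon lengths came from GENCODE M21 (GRCm38), which matched 32919 of 37991 identifiers, and promoter windows from RefSeq.

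The filter kept 14768 genes that reached 10 in 3 or more libraries. Groups were compared on log2(value + 1) by limma-trend, with no covariate, and p-values were adjusted by Benjamini-Hochberg. Levels per kb used the union of exons. Shares were compared by exact permutation. The alternatives included edgeR and DESeq2 on the recovered reads. The fits of group alone by limma-trend, edgeR, DESeq2 and limma-voom were tested on simulated data. The fits with sex or a replicate block, those on subsets of libraries and the permutation of shares were not. The 9 genes and the lists were chosen with earlier results of these data known. Named were the 9 genes, Ift88, any listed gene called by limma-trend, 19 further genes fixed by symbol, and the 3 genes most like Ccnd1, Ccnd2 and Cdkn1a. Replicates differed by a chi-square per degree of freedom of at least 18.1, so none was a copy. Software was DESeq2 1.42.0, edgeR 4.0.16 and limma 3.58.1 under R 4.3.3, and scipy 1.17.1, numpy 2.4.6, pandas 2.3.3 and matplotlib 3.10.9 under Python 3.11.15.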

Additional observations from a re-analysis of the deposited data

Results flagged for a closer look

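Ccnd2 in FAP-ctrl 3 stood at 4206 normalized reads, apart from the other 4 FAP-ctrl libraries, whose highest value was 3782. The gap to the next library was 0.712 of the range of the group, above Dixon's critical value of 0.710 for 5 samples. Of 13 such groups tested, 1 was singled out, and chance singles out about 1 in 20. Without FAP-ctrl 3 the log2 difference of Ccnd2 was 0.22, and it did not pass (limma-trend adjusted p = 0.319).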

How the results depend on the processing

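Ccnd1 and Cdkn1a were higher in FAP-no cilia under every alternative run, and their calls depended on the tool. Only DESeq2 called them, Ccnd1 at log2 differences of 0.7995, 0.7112 with sex as a covariate and 0.7112 among males, and Cdkn1a at 0.6642. Over all genes, DESeq2 called 173 (30 with sex as a covariate, 105 among males), limma-voom 0 (1392 at an unadjusted p under 0.05), and limma-trend 1 to 3 with each library left out. With each library left out, DESeq2 called 45 to 329 genes, with fewest without FAP-no cilia 1 and most without FAP-no cilia 3, and gave Cdkn1a 0.4457 to 0.8224. The cause was not tested.

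Small differences changed sign. Cdkn1b was 0.009028 (sex covariate) and 0.008702 (males) in DESeq2. With upper-quartile scaling Rbl2 was -0.004071 and Cdk2 -0.01506, and E2f4 was -0.00256 both with sex as a covariate and among males. With libraries left out the ranges were -0.4504 to 0.06804 for Cdk6, -0.189 to 0.09603 for Cdkn1b, -0.1478 to 0.107 for Rb1, -0.02951 to 0.08861 for Rbl2, -0.04145 to 0.2724 for E2f4, -0.02472 to 0.07037 for Cdk2, -0.000396 to 0.1604 for Skp2 and -0.006814 to 0.1012 for Fbxo4.

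List medians moved as follows. The kinase-activating list was 0.09849 with upper-quartile scaling and 0.08535 to 0.1835 with libraries left out, and E2F targets were 0.1242 to 0.1797. The turnover list was -0.0004379 (upper-quartile), 0.02094 (limma-voom), 0.05852 (sex covariate, and males), 0.0622 (DESeq2 with sex) and -0.002363 to 0.05059 with libraries left out. The p53 targets were 0.1579 (sex covariate), 0.1562 (males) and 0.177 (DESeq2, males). The list of repressors and FOXO activators was 0.06147 (sex covariate, and males), 0.06278 (DESeq2 with sex) and 0.06183 (DESeq2, males). The cause was not tested.

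Same-numbered libraries of the groups had correlations of their deviations of -0.0704, 0.135 and 0.0358. With so few pairs, these values cannot show whether same-numbered libraries were prepared together. With the replicate number as a block, Ccnd1 was 0.68 (limma-trend adjusted p = 0.0809), Cdkn1a 0.52 (adjusted p = 0.475) and Fbxo4 -0.006389, and 1 gene was called, as without it. Not every library correlated best with its own number. The fits with sex and the DESeq2 fits without single libraries were added after seeing the data. The shares cannot reach an exact p of 0.05 once any library is left out or only males are used. With all FAP-no cilia libraries male, the sex term rests on the controls alone.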
